A study of Mus musculus with 40 samples.

Results

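The RNA of 10 genes that encode Polycomb proteins was followed in fully grown mouse oocytes lacking G9a alone or both G9a and Glp. The members were Ezh1, Ezh2, Eed, Suz12, Rnf2, Ring1, Bmi1, Pcgf1, Pcgf6 and Kdm2b, each taken as the transcript locus that overlaps the named gene on the gene's own strand. The deposited table assigned exactly 1 such locus to each of the 10 genes, out of 38540 loci in all and 15023 with a gene name on the same strand. The oocytes were at the germinal vesicle stage, before meiotic maturation, and came from mice of 22 to 25 days, with 100 to 200 oocytes pooled in a sample.

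Of the 40 samples, 11 RNA-seq libraries and 6 libraries of H3K9me2 (dimethylated lysine 9 of histone H3) were used. The genotypes were a conditional deletion of G9a (G9a cKO, 3 RNA libraries), a conditional deletion of G9a and Glp (cDKO, 2 RNA libraries) and controls labelled only as control or WT. Ehmt2 encodes G9A and Ehmt1 encodes its partner GLP, the enzymes that place H3K9me2. The Cre driver and the alleles carried by the controls are not given in the sources used here. Sample titles carry the prefix GKAO for the G9a cKO and 3 controls, and GKAQ for the cDKO and the other 3 controls, and the labels do not say what the prefix means. H3K9me2 was measured in 2 control, 2 G9a cKO and 2 cDKO libraries. Nothing in the labels says whether libraries of a group came from separate animals, so the spread between libraries may be technical. The p-values rest on that spread. In the main RNA fit it was taken for each member from the trend over loci of like level, in effect not from the member's own libraries.

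Polycomb proteins keep genes silent through 2 kinds of complex. Polycomb repressive complex 2 (PRC2) methylates lysine 27 of histone H3 through EZH2 or EZH1, with EED and SUZ12 as obligate partners. PRC1 attaches ubiquitin to histone H2A through RNF2 (RING1B) or RING1, each paired with a PCGF protein that defines the subtype. KDM2B binds unmethylated CpG sites and brings the PCGF1 form of PRC1 to CpG islands. In growing oocytes PRC2 lays down broad H3K27 methylation, part of which is inherited by the embryo and silences the maternal copy of a few imprinted genes.

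The loci of Eed, Rnf2 and Suz12 are the ones that separated the GKAO from the GKAQ libraries below, so their upstream sequence is shown first. Each is the 250 bases before the RefSeq start in GRCm38.p6, written 5' to 3' on the gene's strand, with every CG dinucleotide in capitals, the sequence that KDM2B recognises when it is unmethylated. The Eed window is chr7:89980977-89981226 on the minus strand, that of Rnf2 is chr1:151500992-151501241 on the minus strand, and that of Suz12 is chr11:79992856-79993105 on the plus strand.
Eed: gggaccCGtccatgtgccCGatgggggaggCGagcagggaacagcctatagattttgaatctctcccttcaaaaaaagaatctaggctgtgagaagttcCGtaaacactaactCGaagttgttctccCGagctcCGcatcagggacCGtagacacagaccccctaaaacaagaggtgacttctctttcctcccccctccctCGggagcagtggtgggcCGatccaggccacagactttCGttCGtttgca
Rnf2: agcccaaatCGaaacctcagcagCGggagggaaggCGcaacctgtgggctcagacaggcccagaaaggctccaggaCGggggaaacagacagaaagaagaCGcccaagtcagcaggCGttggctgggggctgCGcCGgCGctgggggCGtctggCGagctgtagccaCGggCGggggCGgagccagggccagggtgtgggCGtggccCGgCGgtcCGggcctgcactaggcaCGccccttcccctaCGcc
Suz12: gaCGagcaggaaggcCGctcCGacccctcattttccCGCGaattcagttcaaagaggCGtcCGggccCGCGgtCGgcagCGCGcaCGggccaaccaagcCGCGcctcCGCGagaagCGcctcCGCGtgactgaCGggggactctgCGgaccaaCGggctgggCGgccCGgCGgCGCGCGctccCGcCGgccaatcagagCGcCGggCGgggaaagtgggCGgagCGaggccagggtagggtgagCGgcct
These stretches hold 12, 20 and 37 CG dinucleotides. RefSeq windows of 300 bases, which add the 50 bases after the start, were matched for 9 of the 10 members (12 windows, since Kdm2b has 4) and held 17 to 49 CG. The median over all 32851 such windows was 7, 31.4% of them held at least 17, and 94.6% held at least 1. Since CG reads the same on both strands, counts do not depend on the strand.

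The deposited loci did not always begin at the RefSeq start, and where transcription itself starts was not tested. The Kdm2b locus (chromosome 5, 122870605 to 123015080, minus strand) began 25810 bp upstream of it, outside all 4 RefSeq windows. The Suz12 locus began 768 bp and the Eed locus 638 bp upstream, so both run through the whole stretch printed above. The loci of Bmi1, Pcgf6, Ezh2, Ezh1 and Rnf2 began 290, 103, 71, 61 and 31 bp upstream, Ring1 at the same base, and Pcgf1 83 bp downstream. Positions are those of the deposited tables.

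Library depth in the RNA table was 1458868 to 2399680 reads. Ehmt1 reads fell in the cDKO to 31 and 36, against 144, 164 and 173 in GKAQ controls. Scaled to library depth, Ehmt1 overlapped between the G9a cKO and its controls. It was at 69.3, 75.9 and 66.9 reads per 1000000 in the G9a cKO and 80.2, 54.5 and 68.0 in GKAO controls. Ehmt2 was low everywhere, with 9 to 13 reads in GKAO controls and 5, 11 and 2 in the G9a cKO, so the library labelled G9a cKO replicate 2 lay within the control range. The cDKO had 5 and 5 Ehmt2 reads against 8, 30 and 16. All 12 oocyte markers were detected, at a summed 13700 to 17470 RPM (reads per 1000000 reads of the library), and 12 granulosa cell markers summed to 136.9 to 208 RPM. Of 4 blood genes 3 were matched, with at most 3 reads each.

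None of the 10 members changed past the threshold in either mutant. The test was limma on the deposited log2 RPM over all loci, with Benjamini-Hochberg adjusted p under 0.05. In the G9a cKO 0 of 10 members passed, against 1.79% of all loci and 5.22% of loci with a mean of at least 10 RPM, and 3 members had an unadjusted p under 0.05, as did 10.5% and 21.2% of these loci. In the cDKO 0 of 10 passed, against 6.34% and 15.8%, and 1 member had an unadjusted p under 0.05, as did 15.9% and 31.9%. With Ring1 set aside, which had too few reads, the 9 others differed in the G9a cKO by -0.29 to 0.14 on the log2 scale and in the cDKO by -0.20 to 0.22. Their 95% intervals together spanned fold changes of 0.705 to 1.34 in the G9a cKO and 0.763 to 1.42 in the cDKO. Libraries of mutant and control did not overlap for 1 member in the G9a cKO (Ezh2), where 25.2% of loci with at least 10 RPM did not overlap. In the cDKO they did not overlap for 4 members (Bmi1, Pcgf1, Pcgf6 and Kdm2b), where 48.6% of such loci did not. Gene levels are not compared with each other, because no transcript length was at hand.

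**Figure D1:**
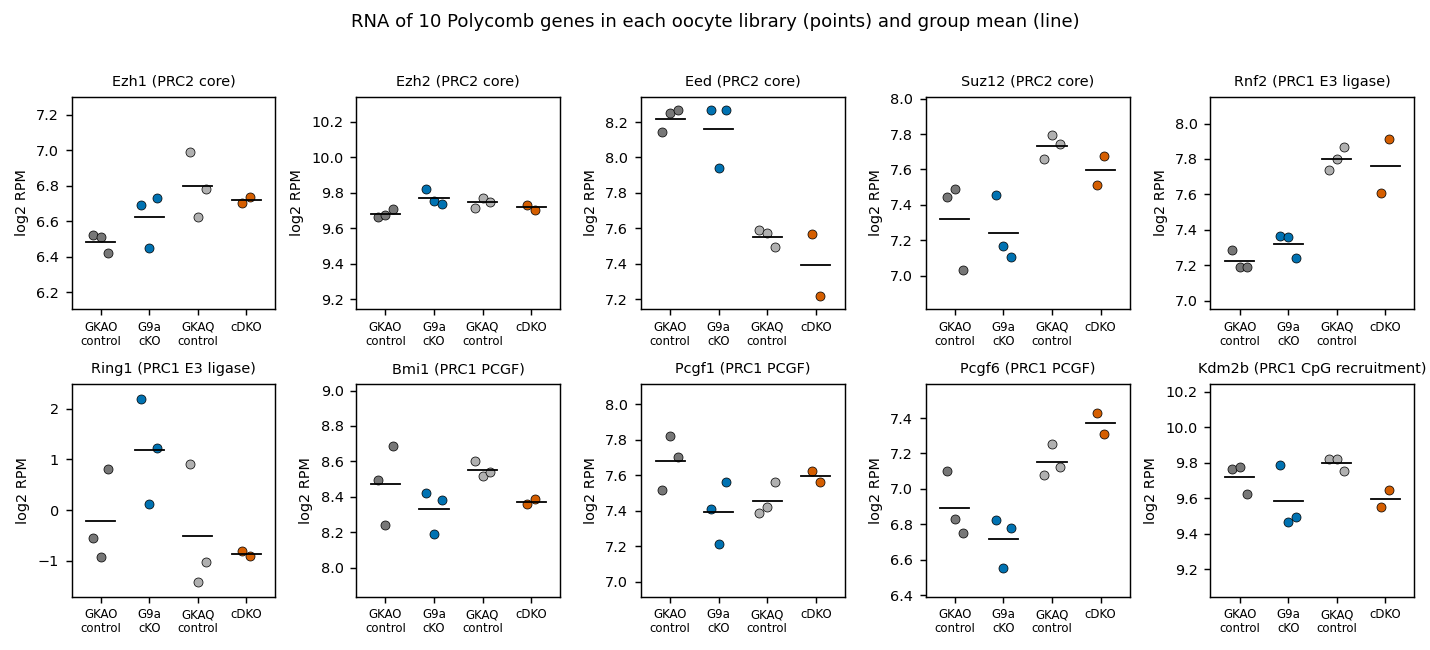
RNA level (log2 RPM, log scale) of each member in all 11 libraries, in 4 groups: GKAO control, G9a cKO, GKAQ control and cDKO. Points are libraries and lines are group means, each axis spans 1.2 log2 units except that of Ring1, and the GKAO libraries lie apart from the GKAQ libraries for Eed, Suz12 and Rnf2.

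Ezh2 encodes the main H3K27 methyltransferase of PRC2. It was at 812, 816 and 836 RPM in GKAO controls and 904, 862 and 853 RPM in the G9a cKO. The 3 G9a cKO libraries were above all 3 controls, yet the difference of 0.09 (95% interval -0.03 to 0.21, log2 scale) did not pass the limma test (adjusted p = 0.309). In the GKAQ series the controls were at 839.7, 875 and 861 RPM and the cDKO at 851 and 833 RPM. These overlapped, with a difference of -0.03 (interval -0.16 to 0.11, limma adjusted p = 0.777).

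Ezh1, the less active paralogue of Ezh2, was at 91.9, 91.1 and 85.6 RPM in GKAO controls and 103.5, 87.4 and 106.4 RPM in the G9a cKO. GKAQ controls were at 127, 98.8 and 109.9 RPM and the cDKO at 104 and 107 RPM. Mutant and control libraries overlapped in both series, and the differences were 0.14 and -0.08 on the log2 scale (limma adjusted p = 0.488 and 0.744).

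Eed encodes the subunit that reads methylated H3K27. Its RNA was at 282, 304 and 308 RPM in GKAO controls and 308.5, 246 and 308 RPM in the G9a cKO. It was lower in the whole GKAQ series, at 193, 190.4 and 180.4 RPM in controls and 189.6 and 149 RPM in the cDKO. Within each series the mutants overlapped their controls, with differences of -0.06 and -0.16 on the log2 scale (limma adjusted p = 0.701 and 0.565).

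Suz12, the scaffold of PRC2, went the other way between the series. GKAO controls were at 174, 179.6 and 131 RPM and the G9a cKO at 175, 144 and 138 RPM, whereas GKAQ controls were at 202, 222 and 214 RPM and the cDKO at 183 and 204 RPM. The mutants again overlapped their controls, with differences of -0.08 and -0.14 on the log2 scale (limma adjusted p = 0.647 and 0.565).

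Rnf2 encodes the RING1B ubiquitin ligase of PRC1. It was at 156, 146 and 146 RPM in GKAO controls and 165, 164 and 151 RPM in the G9a cKO. GKAQ controls were at 213, 222.5 and 233 RPM and the cDKO at 195 and 241 RPM. The differences of 0.10 and -0.04 on the log2 scale did not pass the limma test (adjusted p = 0.545 and 0.836).

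Ring1, the paralogue of Rnf2, had 1, 1 and 3 reads in GKAO controls and 11, 2 and 5 reads in the G9a cKO. GKAQ controls had 3, 0 and 1 reads and the cDKO 1 and 0. The higher reads in the G9a cKO came mainly from replicate 1, and neither mutant passed the limma test (adjusted p = 0.230 and 0.766).

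Bmi1 (PCGF4) belongs to the canonical PRC1 that binds methylated H3K27 through CBX proteins. It was at 361, 302 and 412 RPM in GKAO controls, 343, 292 and 333 RPM in the G9a cKO, 389, 366 and 372 RPM in GKAQ controls and 328.5 and 334 RPM in the cDKO. Both cDKO libraries were below the 3 GKAQ controls, with a difference of -0.18 (interval -0.37 to 0.01, log2 scale) that did not pass the limma test (adjusted p = 0.368).

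Pcgf1 and Pcgf6 define 2 variant forms of PRC1 that do not need H3K27 methylation to find their sites. Pcgf1 was at 183, 226 and 208 RPM in GKAO controls and 170.3, 148 and 189 RPM in the G9a cKO, and at 167, 172 and 189 RPM in GKAQ controls against 198 and 189 RPM in the cDKO. Pcgf6 was at 137, 114 and 108 RPM in GKAO controls and 113, 94.0 and 109.7 RPM in the G9a cKO, and at 135, 152.5 and 139.5 RPM in GKAQ controls against 172.5 and 159 RPM in the cDKO. Against their controls, the mean differences on the log2 scale were -0.29 for Pcgf1 and -0.18 for Pcgf6 in the G9a cKO, and 0.14 and 0.22 in the cDKO. The difference between these effects, cDKO minus G9a cKO, was 0.42 (interval 0.09 to 0.75) for Pcgf1 and 0.40 (interval 0.01 to 0.78) for Pcgf6. Neither passed the limma test over all loci (adjusted p = 0.169 for each), where 1.08% of all loci and 3.34% of those with at least 10 RPM did, and 0 of the 10 members did.

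Kdm2b came closest to the threshold. It was at 869.9, 876 and 789 RPM in GKAO controls and 883, 708 and 720.4 RPM in the G9a cKO, so that replicate 1 of the mutant lay above the controls and the other 2 below. GKAQ controls were at 905, 903 and 864 RPM and the cDKO at 749.9 and 799.7 RPM, both below every control. The difference was -0.14 (SE 0.06, interval -0.26 to -0.02) in the G9a cKO and -0.20 (SE 0.07, interval -0.34 to -0.07) in the cDKO, on the log2 scale (limma adjusted p = 0.230 and 0.0564). The call changed with single choices. Kdm2b passed in the cDKO with each library centred on its median (-0.30, limma adjusted p = 0.00112) or without cDKO replicate 2 (-0.25, limma adjusted p = 0.0493), and in the G9a cKO without replicate 1 (-0.24, limma adjusted p = 0.0437). Over all 16 alternatives its adjusted p in the cDKO ran from 0.00112 to 0.575, and the difference between the 2 mutants' effects was -0.06 (interval -0.25 to 0.12).

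**Figure D2:**
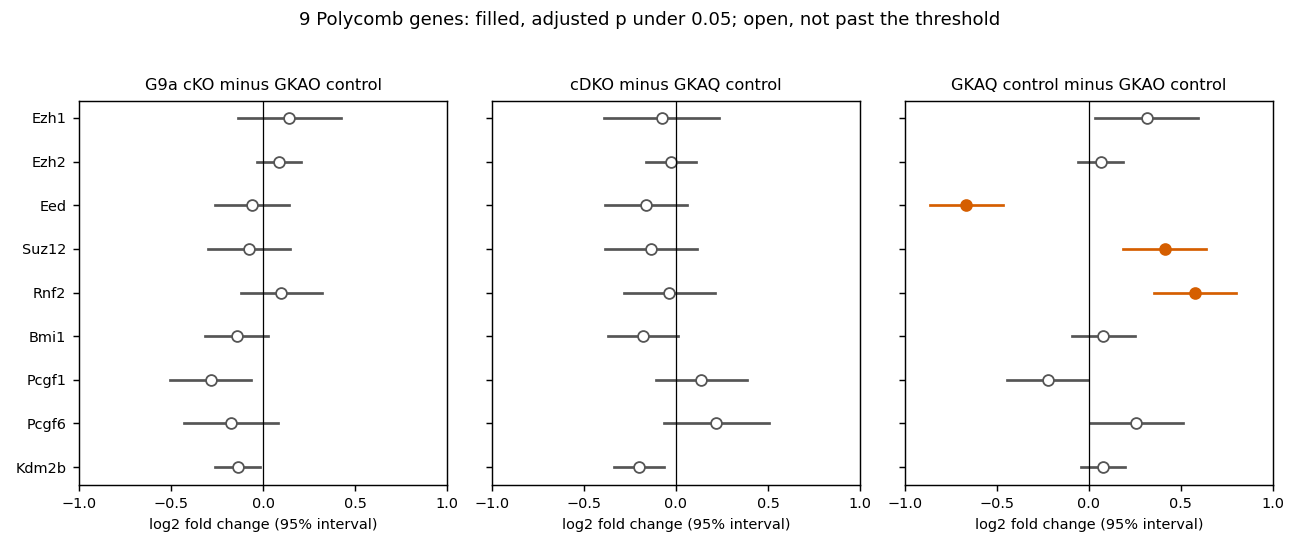
Log2 fold change (point) with its 95% interval (line) for the 9 members with a mean of at least 10 RPM, in G9a cKO minus GKAO controls, cDKO minus GKAQ controls, and GKAQ controls minus GKAO controls. Filled orange points passed the limma test, which only Eed (-0.67), Suz12 (0.41) and Rnf2 (0.58) did, and only between the control series.

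The larger differences lay between the 2 series of control oocytes, which share the label of control. There 3 of 10 members passed the limma test, against 3.87% of all loci and 14.8% of those with at least 10 RPM. Eed was lower in GKAQ controls (difference -0.67, SE 0.10, log2 scale, limma adjusted p = 1.44e-08). Rnf2 was higher by 0.58 (SE 0.11, limma adjusted p = 3.06e-05) and Suz12 by 0.41 (SE 0.11, limma adjusted p = 0.0116). These are fold changes of 0.631, 1.49 and 1.33.

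The mutants of the 2 series showed the same order. The cDKO minus the G9a cKO, which differ in genotype too, gave -0.77 for Eed (limma adjusted p = 4.88e-09), 0.44 for Rnf2 (limma adjusted p = 0.0137) and 0.35 for Suz12, which did not pass (limma adjusted p = 0.0807). All 6 GKAO libraries lay apart from all 5 GKAQ libraries for these 3 of 10 members, as did 2.96% of all loci and 11.1% of loci with at least 10 RPM. Pcgf6 passed between the mutants (0.65, limma adjusted p = 0.000431) but not between the controls (0.26, limma adjusted p = 0.417), and whether these differences differ is the test of effects given above.

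The call for Suz12 was lost without GKAO control replicate 3 (0.27, limma adjusted p = 0.356), GKAQ control replicate 2 (0.38, limma adjusted p = 0.103) or GKAQ control replicate 3 (0.41, limma adjusted p = 0.0735). Without the variance trend and robust fit over all loci none of the 3 passed (limma adjusted p = 0.136 for Eed, 0.142 for Rnf2 and 0.465 for Suz12). That fit on loci with at least 10 RPM lost only Suz12 (limma adjusted p = 0.0905). Of 17 alternatives, Eed passed in 15, Rnf2 in 16 and Suz12 in 9. Summed oocyte markers were at 15830 to 16290 RPM in GKAO controls and 13700 to 14320 RPM in GKAQ controls. Of these 12 genes, 1 passed the limma test as higher in GKAQ controls and 4 as lower, with a median difference of -0.02. Zp2 (mean 2893 against 1411 RPM) and Zp3 (1694 against 1057 RPM) were lower in GKAQ controls, and Gdf9 (3820 against 4461 RPM) was higher. Granulosa markers summed to 198.5 to 208 and 147.7 to 170.4 RPM, with 0 of 12 higher, 2 lower and a median difference of -0.12. The largest term in these sums was Nr5a2, with a mean of 122.4 RPM in GKAO and 79.5 RPM in GKAQ controls. Cyp19a1 went the other way (41.3 and 47.3 RPM), Gata4 was at 16.0 and 15.6 RPM, and 8 of the 12 had at least 1 RPM. The part of cell makeup or of the prefix in these differences was not tested.

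The wider Polycomb machinery was read from a list of 50 other genes, of which 41 were matched to a locus and 34 had a mean of at least 10 RPM. In the G9a cKO 1 of the 41 passed the limma test, higher, near the share of all loci (1.79%, and 5.22% of those with at least 10 RPM), and the list's median difference was -0.01 against 0.01 for all loci with at least 10 RPM. In the cDKO 9 of 41 passed (22%), against 6.34% of all loci and 15.8% of those with at least 10 RPM. Of the 9, 2 were higher and 7 lower, where 785 of the 9091 loci with at least 10 RPM passed as higher and 653 as lower. Among the 9, Phf19 and E2f6 had means of 8.485 and 5.12 RPM. The list's median was -0.03 against 0.05 for loci with at least 10 RPM.

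Jarid2, a DNA-binding cofactor of PRC2, was the 1 gene that rose in the G9a cKO. It was at 228, 198 and 226 RPM in GKAO controls and 251, 359 and 347 RPM in the G9a cKO, with no overlap. The difference was 0.54 (SE 0.10, log2 scale, limma adjusted p = 5.74e-05). It did not pass without trend and robust (limma adjusted p = 0.279) or with log2(RPM + 0.5) or log2(RPM + 2) over all loci (0.224 and 0.266). An opposite-strand locus inside Jarid2, at 21.9% of its level, differed by 0.53 (limma adjusted p = 0.23), and without stated strand use its reads cannot be told apart from those of Jarid2. In the cDKO it was at 189.6 and 163 RPM against 192, 205 and 208.5 RPM in GKAQ controls, a difference of -0.20 (limma adjusted p = 0.445). The 2 effects differed by -0.74 (limma adjusted p = 0.000753).

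Among PRC2 partners in the cDKO, Rbbp7, a histone-binding subunit, fell by 0.31 on the log2 scale (limma adjusted p = 6.59e-05). It was at 1477, 1439 and 1344 RPM in GKAQ controls and 1058 and 1245 RPM in the cDKO. Ezhip, an inhibitor of PRC2 that is expressed in gonads and is listed under an older symbol in the table, fell by 0.31 (limma adjusted p = 0.0057). It was at 646, 579.7 and 599.9 RPM in controls and 462 and 522 RPM in the cDKO. Phf19, which links PRC2 to methylated H3K36, fell by 1.55 (limma adjusted p = 0.0168) on only 13, 29 and 22 reads in controls and 9 and 4 reads in the cDKO.

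Of the PRC1 partners, Rybp, which recognises ubiquitinated H2A, fell by 0.41 on the log2 scale (limma adjusted p = 0.0339). It was at 219, 215 and 228 RPM in GKAQ controls and 137 and 202 RPM in the cDKO. Mga, the DNA-binding partner of the PCGF6 complex, fell by 0.66 (limma adjusted p = 0.00461), from 99.9, 98.4 and 127 RPM to 63.8 and 72.9 RPM. Usp7, a deubiquitinase found with PRC1, fell by 0.30 (limma adjusted p = 0.000843), from 991, 997 and 924 RPM to 716 and 864 RPM. Kdm6a, which removes H3K27 methylation and so acts against PRC2, fell by 0.52 (limma adjusted p = 0.00781), from 149.6, 145 and 147 RPM to 93.4 and 112 RPM. The genes that fell thus included partners of PRC2 and PRC1, but also Ezhip, an inhibitor of PRC2, and Kdm6a, which acts against it. The list's median difference was -0.03, and the joint effect of these falls on either complex was not tested. In the same contrast 7 of 12 oocyte markers passed (5 higher, 2 lower) and 2 of 12 granulosa markers were higher. Their part in the list's count was not tested.

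The 2 genes that rose in the cDKO were Skp1a and E2f6. Skp1a, a ubiquitin ligase subunit shared with the KDM2B complex, rose by 0.29 on the log2 scale (limma adjusted p = 8.67e-08), from 2110, 2214 and 2198 RPM to 2719 and 2584 RPM. An opposite-strand locus that overlaps it stood at 127% of its level and changed by 0.33 (limma adjusted p = 2.77e-12), and since it is not stated whether strand was used in counting, the reads of the 2 cannot be told apart. E2f6, a DNA-binding repressor in the PCGF6 complex, passed with 0, 8 and 7 reads in GKAQ controls and 13 and 13 in the cDKO, and no longer passed without GKAQ control replicate 1 (1.16, limma adjusted p = 0.139).

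The count in the cDKO rested on its replicate 1, the library further from the controls for 7 of the genes, Skp1a included. Without it 2 of the 9 remained, Phf19 (-2.11, limma adjusted p = 0.00949) and Skp1a (0.25, limma adjusted p = 0.000358). Phf19 in turn did not pass without cDKO replicate 2 (-0.997, limma adjusted p = 0.448), GKAQ control replicate 2 (-1.43, limma adjusted p = 0.0994) or GKAQ control replicate 3 (-1.51, limma adjusted p = 0.0686). Without the variance trend and robust fit, on loci with at least 10 RPM, 3 genes of the list passed, and over all loci 1 did. Rbbp7, Rybp and Usp7 were also higher in GKAQ than in GKAO controls, by 0.52, 0.61 and 0.37 on the log2 scale (limma adjusted p = 1.19e-17, 2.01e-05 and 6.26e-07), so their cDKO levels lay nearer to those of GKAO controls. Skp1a was lower in GKAQ than in GKAO controls (-0.19, limma adjusted p = 0.00039), and its cDKO level too lay nearer to that of GKAO controls.

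**Figure D3:**
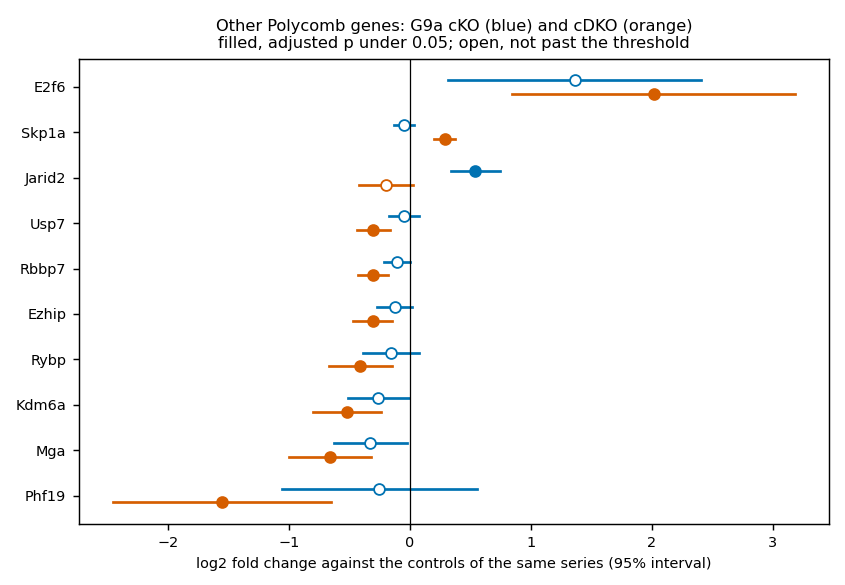
Log2 fold change (point) with its 95% interval (line) of the 10 other Polycomb genes that passed the limma test in a mutant, for G9a cKO against GKAO controls (blue) and cDKO against GKAQ controls (orange). Filled points passed, and only Jarid2 (0.54) did so in the G9a cKO.

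Of 6 imprinted genes listed as silenced by maternal H3K27 methylation, 4 were matched, and 2 passed the limma test in both mutants. Of all loci 1.79% passed in the G9a cKO and 6.34% in the cDKO, and 5.22% and 15.8% of those with at least 10 RPM. Of the 4 genes, 1 had a mean of at least 10 RPM. The list was chosen with earlier results of these data known, so its count is not a test of the set. Gab1, a signalling adaptor, had 3, 3 and 1 reads in GKAO controls and 49, 24 and 46 in the G9a cKO, and 0, 4 and 6 reads in GKAQ controls against 54 and 70 in the cDKO (limma adjusted p = 9.79e-12 and 1.83e-14). Smoc1 had 0, 6 and 0 reads against 14, 15 and 12, and 2, 0 and 2 against 10 and 4 (limma adjusted p = 0.0073 and 0.0463). The calls of Gab1 and Smoc1 were not followed over the alternative settings. Slc38a4 has 2 loci, of which the one with more RNA was tested, and it did not pass in either mutant. It was at 5.48, 6.28 and 4.10 RPM in GKAO controls and 9.18, 10.4 and 13.2 RPM in the G9a cKO. GKAQ controls were at 6.29, 8.33 and 6.90 RPM and the cDKO at 9.11 and 11.9 RPM. Mutants thus did not overlap controls, as at 25.2% of loci with at least 10 RPM in the G9a cKO and 48.6% in the cDKO. Phf17, with 0 to 5 reads, did not pass either.

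H3K9me2 over the members was read as RPM per 10 kb window, a share of the library, so a change in the total amount of the mark would not show. The 2 control libraries held 7048784 and 19128881 reads and the 4 mutant libraries 1109191 to 1881848, so each member rested on 27 to 823 reads in a control library and 5 to 136 in a mutant one. In controls the mean level was below the median of annotated loci (3.78 RPM per 10 kb, 14966 loci) for 9 of 10 members, and 6 members lay below the 20th percentile. Levels were not corrected by input or IgG reads, and the 10th to 90th percentiles over loci were only 2.89 to 4.85. Bmi1 was lowest, at 2.43 RPM per 10 kb (percentile 3.16), followed by Suz12 at 2.58 (percentile 4.52) and Ezh2 at 2.69 (percentile 6.01). Ring1, whose 10 kb window is longer than its 3889 bp locus, was highest at 4.09 (percentile 65.2). Against loci with at least 10 RPM of RNA, 7 of 10 members were below the median.

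The limma test on log2(RPM per 10 kb + 1) called 0 of 10 members in the G9a cKO, in the cDKO and between the mutants, and 0% of loci in each. At an unadjusted p under 0.05 there were 2, 2 and 1 members, near the shares of all loci (24.1%, 18.5% and 15.1%). Mean differences were below 0 for 6 of 10 members in the G9a cKO and 2 of 10 in the cDKO. The median difference over all loci was also higher in the cDKO (0.12) than in the G9a cKO (0.01). At loci with at least 10 RPM of RNA these medians were 0.22 and 0.09. Eed (-0.41 and -0.15 on the log2 scale) and Pcgf6 (-0.39 and -0.34) were below 0 in both, with limma adjusted p of 0.314 to 0.757. With 2 libraries in each group this test also missed changes put into simulated data, so a miss does not show that levels were alike. A test with voom weights on the summed reads, chosen after the data were seen, called 3 members in the G9a cKO and 2 in the cDKO, all higher, where it called 21.7% and 22.1% of 14931 loci (15.8% and 19.2% as higher). It called 0 members between the mutants, where 0.683% of loci passed. Both mutants were set against the same 2 controls. Values per library are given for the 4 members called by this second test, a choice made after the values were seen.

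Kdm2b was called in both mutants, at 3.10 and 2.87 RPM per 10 kb in controls, 3.84 and 4.63 in the G9a cKO and 5.26 and 4.15 in the cDKO (voom limma differences 0.50 and 0.67 on the log2 scale, adjusted p = 0.00176 and 1.66e-06). Suz12 was called in the cDKO, at 2.70 and 2.47 in controls, 1.94 and 3.07 in the G9a cKO and 4.53 and 4.15 in the cDKO (voom limma difference 0.78, adjusted p = 0.00139). Ezh1 was called in the G9a cKO, at 3.16 and 2.69 in controls, 3.90 and 5.41 in the G9a cKO and 3.92 and 3.99 in the cDKO (voom limma difference 0.67, adjusted p = 0.0215). Ring1 was called in the G9a cKO, at 3.83 and 4.34 in controls, 11.9 and 9.02 in the G9a cKO and 8.71 and 3.72 in the cDKO, on 22 and 10 reads in the G9a cKO (voom limma difference 1.39, adjusted p = 0.000126). In each of these calls both mutant libraries lay above both controls, as they did at 31.7% of all loci in the G9a cKO and 41.6% in the cDKO. Read from the window at the start of the locus alone, the difference was -0.16 for Kdm2b in the cDKO and -0.34 for Ezh1 in the G9a cKO, neither past the limma threshold (adjusted p = 0.963 and 0.72). That window held 4 and 7 reads for Kdm2b in the cDKO, and 6 and 2 for Ezh1 in the G9a cKO. For Kdm2b it lies at the locus start, 25810 bp upstream of the RefSeq start. By the limma test without weights the differences behind the voom calls ran from 0.39 to 1.16 on the log2 scale with adjusted p of 0.125 to 0.238. The depth gap between control and mutant libraries runs along with genotype, and its part was not tested.

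**Figure D4:**
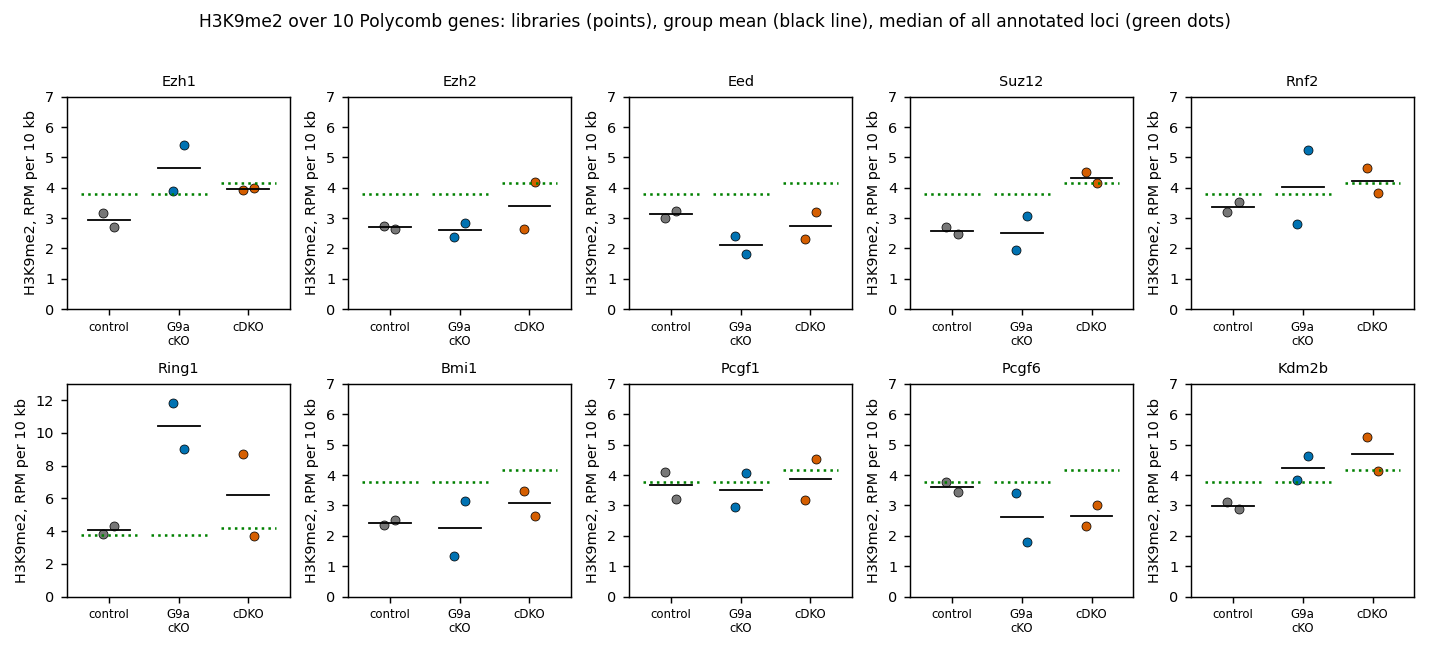
H3K9me2 (RPM per 10 kb window, linear axis from 0) over each member in 2 control, 2 G9a cKO and 2 cDKO libraries. Points are libraries, black lines are group means and green dots are the median of 14966 annotated loci in that group (3.78, 3.78 and 4.17), above the control mean of every member except Ring1.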

How the data were processed

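RNA was measured in 11 oocyte libraries and H3K9me2 in 6. The authors deposited both tables as log2 values with a column for each library. The values are log2 of whole multiples of 1 read scaled to 1000000 reads (RPM). A locus or window that had no reads was given 0.9 read. Reads were recovered from these steps, and at least 99.997% of the RNA values in each library came out whole within 0.01 read. Per the submitters' processing notes, Trim Galore, Bowtie2, HISAT2 2.1.0, Bismark 0.19.0 and GRCm38 were used, without their roles. The counting method and its use of strand are not given in the sources used here. In the H3K9me2 table, 4 columns matched no sample and were not used. Bisulphite, input and IgG samples were not analysed here.

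Groups came from genotype and title prefix. limma 3.58.1 in R 4.3.3 fitted 1 mean per group with variance trend and robust moderation over all 38540 loci, with Benjamini-Hochberg adjustment in each contrast, and log2(RPM + 1) over 14966 annotated loci for H3K9me2. Fits were tested on simulated data. Replicate pairs differed by more than sampling noise (chi-square per degree of freedom 1.69 to 2.80). Sequences are from RefSeq GRCm38.p6. Other software was the R package data.table (version 1.17.8), matplotlib 3.10.9, pandas 2.3.3 and Python 3.11.15. All members are named, and every other Polycomb gene with an adjusted p under 0.05 in a mutant or in the difference of effects. Genes most like a member were to be named only for a member past the threshold there, so none are. The members and lists were chosen with earlier results of these data known.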

Additional observations from a re-analysis of the deposited data

Results flagged for a closer look

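For 2 Polycomb genes outside the 10 members the effect differed between the deletions by a test of the difference itself. For Jarid2 the cDKO effect minus the G9a cKO effect was -0.74 (SE 0.15, log2 scale, limma adjusted p = 0.000753). It ran from -0.90 to -0.63 over 20 alternatives, with adjusted p of 4.44e-05 to 0.358, and 4 of the 20 did not pass. For Skp1a it was 0.34 (SE 0.06, log2 scale, limma adjusted p = 3.99e-05). It ran from 0.27 to 0.39 over 20 alternatives, with adjusted p of 9.63e-06 to 0.28, and 4 did not pass. Each deletion was compared with its own controls, so the genotype and the title prefix cannot be told apart in these differences.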

How the results depend on the processing

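Precision is set by 2 or 3 libraries per group and, for H3K9me2, by 1109191 to 1881848 reads per mutant library. No member passed in a mutant except as follows: 1 (Kdm2b) with centred libraries and 1 (Eed, -0.49, limma adjusted p = 0.00328) with all 6 controls pooled, both in the cDKO. Leaving out 1 library gave 0 to 1 members in the G9a cKO and 0 to 1 in the cDKO, and 2 to 7 genes of the wider list in the cDKO. Between control series, log2(RPM + 2) left 1 member and dropping trend and robust over all loci left 0. On loci with at least 10 RPM, dropping trend and robust lost only Suz12. The wider list had 0 calls in the G9a cKO and 1 in the cDKO with log2(RPM + 0.5), log2(RPM + 2), or no trend and robust. Over all loci the first 2 include 8635 loci without reads, which then do not vary, and with log2(RPM + 0.5) on loci with a read the counts were 1 and 10. Without trend and robust on loci with at least 10 RPM the cDKO count was 3, and pooled controls gave 4 and 5. With the title number as a replicate block the list had 2 calls in the G9a cKO, no member passed, and Suz12 was at 0.0476. The correlation of same-numbered deviations was 0.122 for each of 2 GKAO numbers, equal by construction, and 0 for the 1 number shared in the GKAQ series, and the labels do not explain the numbers. H3K9me2 with voom weights called 3 and 2 members. Differences that changed sign, on the log2 scale and without a call under either setting, were as follows. With pooled controls, Ezh1 was at -0.015, Eed at 0.27 and Rnf2 at -0.19 in the G9a cKO, and Ezh1 at 0.0797, Ezh2 at 0.0036, Suz12 at 0.0683 and Rnf2 at 0.25 in the cDKO. Leaving out 1 library, the G9a cKO ranges were -0.22 to 0.0061 for Suz12 and -0.11 to 0.0492 for Eed. In the cDKO they were -0.16 to 0.0173 for Ezh1, -0.34 to 0.0134 for Eed, -0.19 to 0.12 for Rnf2 and -0.81 to 0.36 for Ring1. Between control series they were -0.0387 to 0.18 for Bmi1 and -0.996 to 0.23 for Ring1. With mutants in place of controls, Ezh2 was at -0.0521 and Pcgf1 at 0.20. For H3K9me2 in the start window alone, Ezh1 was at -0.34 and Suz12 at 0.36 in the G9a cKO and Kdm2b at -0.16 in the cDKO. These windows held 2 to 7 reads in each library of those mutants. Leaving out 1 library gave -0.28 to 0.18 for Suz12 in the G9a cKO and -0.11 to 0.93 for Ring1 in the cDKO. The cause of these changes was not tested. The planned sum over several loci of a gene gave no value, since each member has 1. Voom for H3K9me2, log2(RPM + 0.5) on loci with a read, the fit without trend on loci with at least 10 RPM, and mutants in place of controls were chosen after seeing the data.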

Other observations

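Loci on the opposite strand overlap several members. One inside Ezh2 (5039 bp) stood at 14.9% of the Ezh2 level, and one inside Suz12 (5175 bp) at 16.9% of the Suz12 level. One that overlaps the upstream end of the Kdm2b locus by 140 bp stood at 4.2%, and one at the start of Eed at 1.16%. None of these 4 loci passed the limma test in either mutant or between control series (adjusted p of 0.454 or more between control series). Strand use in counting is not stated, so reads of the loci inside Ezh2 and Suz12 cannot be told apart from those genes' own. Between control series the locus inside Suz12 differed by 0.38 and Suz12 by 0.41, the locus inside Ezh2 by -0.15 and Ezh2 by 0.06. A short opposite-strand locus of 130 bp inside Jarid2 was lower in GKAQ than in GKAO controls (difference -1.57 on the log2 scale, limma adjusted p = 3.18e-10), while Jarid2 itself differed by -0.10 (limma adjusted p = 0.534). These loci were singled out after their values were seen.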
